A study of Rattus norvegicus with 196 samples.

Results

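Solute carriers are membrane proteins that move amino acids, sugars, ions, metals and metabolites across the cell surface and the membranes of organelles. The 35 transcripts described here are those that the study listed by name and whose name begins with Slc and a number, or with Slco, after Slc6a3, Slc6a7, Slc6a11 and Slc7a10 were set aside. They are 35 of 1845 named transcripts and of 29188 transcripts counted. The study's list holds transcripts that it called between fluoxetine and control, so that contrast chose the members, and their values in it are given as a description. Counts came from 196 libraries of 25 brain regions of male Long-Evans rats. They were 2 months old when fluoxetine (FT group, 18 mg per kg body weight) or water (Sham group) was started, ad libitum, for 6 weeks. There were 98 libraries per group, each from the pooled tissue punches of several rats and numbered 1, 3, 4 or 5, with 4 per region and group except 2 in Sham Arc and 2 in FT mPoA. The study's animal numbers imply that all regions of a replicate number in a group came from the same rats. Where p-values are given, they measure the spread left between these pools after the replicate number is fitted, unless stated otherwise.

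Members fall into functional groups. Slc17a6 loads glutamate into synaptic vesicles and marks subcortical glutamatergic neurons, Slc5a7 is the high-affinity choline transporter of cholinergic neurons, and Slc30a3 fills synaptic vesicles with zinc. There were 7 transcripts of amino acid transporters and their subunits, 10 of the Slc25 family (carriers of the mitochondrial inner membrane, with a peroxisomal member), 4 of sugar and monocarboxylate transporters, 5 linked to ion and pH transport, 2 of zinc importers and 3 of the nucleotide sugar transporter family. Slc22a17, a receptor for lipocalin that belongs to the organic cation transporter family, stood alone. Slc9a3r2 is named after the sodium/proton exchangers but encodes a scaffold protein that binds them and moves nothing itself. Astrocytes take up transmitter glutamate and return it to neurons as glutamine, a cycle in which Slc38a3 (release from astrocytes) and Slc38a1 (uptake by neurons) take part.

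Of the 35 members, 29 had an entry among RefSeq promoters of the GRCr8 assembly. The 250 bases before the RefSeq start are shown for Slc17a6, Slc5a7 and Slc30a3, the members with the widest ranges of level between regions. Capitals mark matches, on either strand, to the GC box GGGCGG, the CAAT box CCAAT, the TATA box TATAAA, the cAMP response element TGACGTCA or the E-box CAGCTG. The marked matches do not overlap. Counts were made on the rn5 build, so the RefSeq start need not be that of the counted transcript.
Slc17a6 (chr1:110348197-110348446, plus strand): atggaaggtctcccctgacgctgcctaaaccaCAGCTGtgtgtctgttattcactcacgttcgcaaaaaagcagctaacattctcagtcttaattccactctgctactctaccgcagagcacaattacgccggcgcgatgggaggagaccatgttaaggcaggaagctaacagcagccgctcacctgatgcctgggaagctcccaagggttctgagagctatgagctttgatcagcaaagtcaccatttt
Slc5a7 (chr9:7953510-7953759, minus strand): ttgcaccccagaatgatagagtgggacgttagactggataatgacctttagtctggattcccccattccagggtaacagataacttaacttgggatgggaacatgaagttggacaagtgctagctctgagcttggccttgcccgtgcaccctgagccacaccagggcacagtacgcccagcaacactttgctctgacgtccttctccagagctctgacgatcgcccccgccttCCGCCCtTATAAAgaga
Slc30a3 (chr6:30997164-30997413, plus strand): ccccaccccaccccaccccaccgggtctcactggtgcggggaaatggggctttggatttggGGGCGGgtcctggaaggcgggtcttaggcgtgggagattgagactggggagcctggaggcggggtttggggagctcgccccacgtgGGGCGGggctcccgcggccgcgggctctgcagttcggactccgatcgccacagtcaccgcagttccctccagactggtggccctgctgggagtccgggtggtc
The Slc17a6 window held 1 match, CAGCTG at position -218 from the start. The Slc5a7 window held GGGCGG on the opposite strand at -17 and TATAAA at -10, and the Slc30a3 window held GGGCGG at -189 and -103. GC content was 50.8%, 53.2% and 70.4%. The median over the 29 member windows was 63.2%, against 52% for all 27457 windows. The part of GC content in the match counts that follow was not tested. GGGCGG was present in 17 of the 29 member windows against 32.4% of 27457 windows of the same length, CCAAT in 12 against 34.3%, TATAAA in 4 against 13.1%, CAGCTG in 4 against 11.9% and TGACGTCA in 2 against 1.70%. A match is a run of letters and was not tested as a binding site.

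Library depth varied from 4586 to 50893913 counts on transcripts, and the lowest after the first was 543403. The library of 4586 counts (Sham Nts replicate 3) and CGC replicate 1 were left out of the Sham fits. In Sham ILC, replicate 3 had 543403 counts and in replicate 1 the 50 most counted transcripts took 82.8% of counts and 21.8% of reads were ambiguous; both were kept, and leaving them out is given where it bears on a result. Replicate 3 libraries gave a median of 68.2% of counts to their top 50 transcripts, against 28.3% to 34.8% in the other replicate numbers. Region labels were checked against genes that mark them. Th and Slc6a3, both of dopamine neurons, were highest in Sham VTA (303 ± 120 and 74.6 ± 66.4 CPM, counts scaled to a common library size, mean ± SD, n = 4), and Adora2a of striatal neurons was highest in NAcC (132 ± 90.4 CPM). Hcrt of the lateral hypothalamus was highest in VMH (219 ± 360 CPM) and next in LH (152 ± 277). Oxt and Avp were low in PVN, at 5.85 ± 11.3 and 1.83 ± 3.37 CPM, against 579 ± 1142 and 299 ± 575 in VMH, where libraries differed widely. Adora2a was also high in BLA, between 52.0 and 130.1 CPM, and low in CMA, between 1.48 and 8.73. The study's region list gives PVN as the paraventricular nucleus of the thalamus. Whether BLA and CMA punches were exchanged cannot be told from these data, and an exchange would reverse the sign of each difference between them. PVN, BLA and CMA are used below only as labels of the punches.

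Levels in Sham rats differed between regions for most members. In a test over the 25 regions, 25 of 35 members (71.4%) passed an adjusted p of 0.05 with a fitted range of at least 1 on the log2 scale, against 61.3% of 17008 transcripts tested (edgeR's quasi-likelihood F test, Benjamini-Hochberg adjustment over all transcripts). The widest ranges belonged to Slc30a3 (6.40), Slc5a7 (5.49) and Slc17a6 (5.15), followed by Slc16a6 (3.04) and Slc2a3 (2.63). The 10 members without a call included Slc6a6, Slc25a17, Slc25a28, Slc25a33, Slc25a38, Slc25a42, Slc39a1, Slc35b2 and Slc22a17, with ranges from 0.73 (Slc25a38) to 1.20 (Slc39a1). Without the replicate number in the fit, 12 members (34.3%) passed, against 28.7% of all transcripts. In punched tissue, fewer cells of a type and less RNA per cell cannot be told apart.

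**Figure D1:**
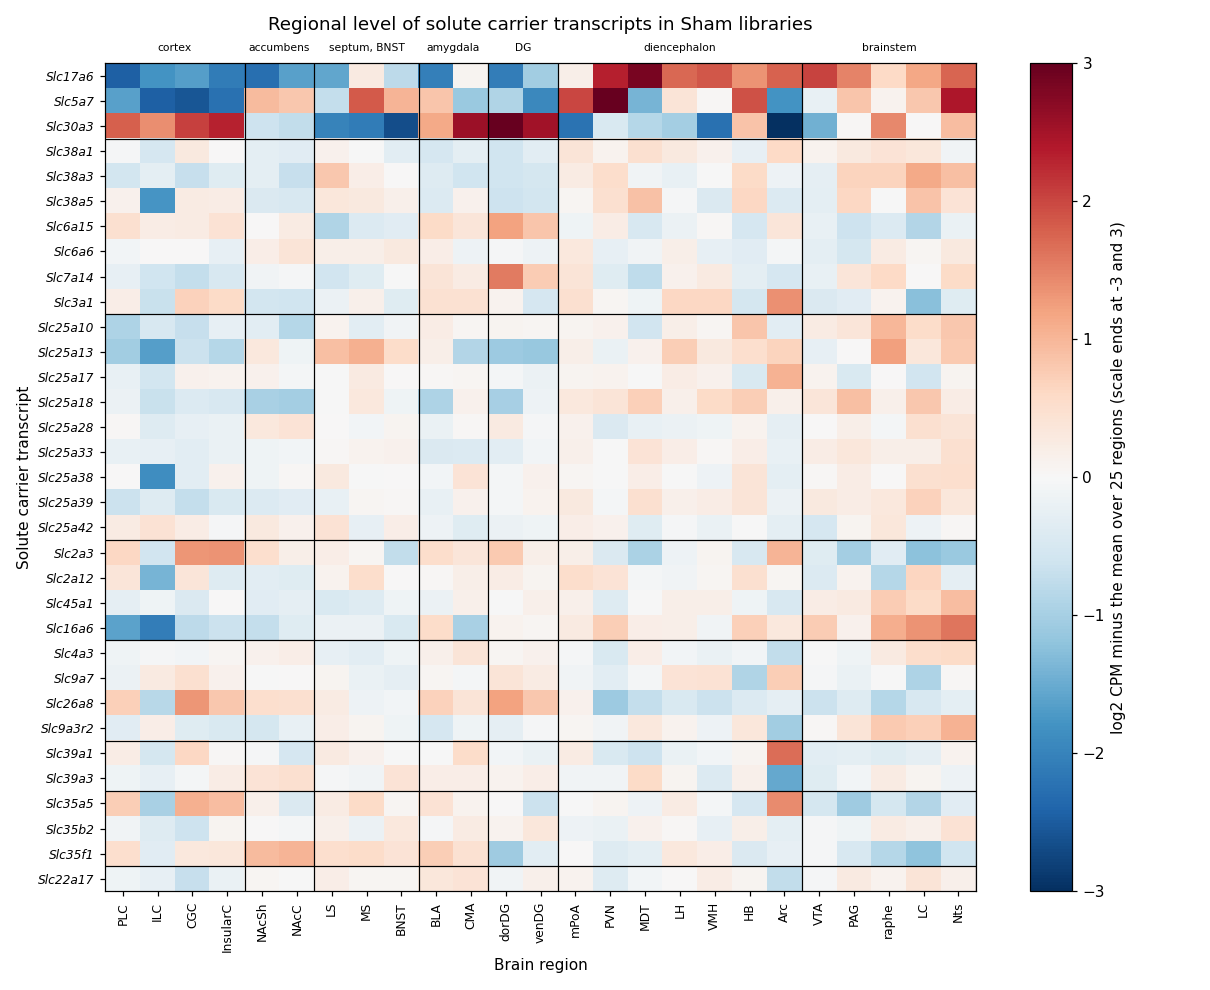
Heat map of 33 of the 35 members (rows, grouped by role) in 25 regions (columns, grouped by anatomy) in Sham libraries. Color is mean log2 CPM in a region minus the mean over the 25 regions, cut at -3 and 3. The rows of Slc17a6, Slc5a7 and Slc30a3 carry the strongest colors.

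Slc17a6 (transcript ENSRNOT00000022383) was highest in MDT. The 4 Sham MDT libraries, replicates 1, 3, 4 and 5, had 373, 286, 625 and 412 CPM. NAcSh was lowest, with 14.7, 9.27, 13.1 and 10.2 CPM. No MDT library came near any NAcSh library. Means ran from MDT (424 ± 144, SD, n = 4) and PVN (288 ± 60.0) through VTA, VMH, LH, Arc, Nts, PAG, HB, LC and raphe to the septal, cortical and other forebrain regions, of which BLA had 14.6 and PLC 12.9 CPM. Libraries of regions next to each other in this order overlapped in all 24 steps. Slc17a6 was higher in the diencephalon than in the other regions by 2.33 ± 0.11 (log2 fold change ± SE, adjusted p = 2.52e-30) and in the brainstem by 1.77 ± 0.12 (adjusted p = 4.74e-22). It was lower in cortex (-2.39 ± 0.18, adjusted p = 1.39e-19), nucleus accumbens (-2.14 ± 0.23, adjusted p = 4.31e-12), dentate gyrus (-1.64 ± 0.23, adjusted p = 5.28e-09) and amygdala (-1.09 ± 0.21, adjusted p = 4.55e-05).

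Slc5a7 (ENSRNOT00000014548) was highest in PVN, where the libraries had 133, 87.3, 93.4 and 68.0 CPM. Nts (64.8 ± 21.7, n = 3), MS (53.7 ± 45.7, n = 4), HB (49.7 ± 28.3) and mPoA (48.2 ± 14.9) followed, and CGC was lowest at 1.86 ± 0.40 (n = 3). Again, libraries overlapped in all 24 steps of the order. In MS, replicate 1 had 119 CPM and replicate 5 had 18.2. Slc5a7 was lower in cortex than elsewhere by a log2 fold change of -2.34 ± 0.21 (adjusted p = 1.06e-16) and lower in the dentate gyrus by -1.65 ± 0.25 (adjusted p = 8.72e-08).

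Slc30a3 (ENSRNOT00000008126) had its highest mean in dorDG. The dorDG libraries had 233, 313, 50.4 and 112 CPM and the venDG libraries 121, 197.5, 38.8 and 74.8, in the order of replicates 1, 3, 4 and 5. Arc was lowest, with 0.999 and 0.898 CPM. Replicate 3 was high and replicate 4 low in both parts of the dentate gyrus, yet within each replicate number the dentate gyrus exceeded the mean of the other regions by between 2.84 and 3.12 on the log2 scale. In the fit the difference was 2.89 ± 0.18 (adjusted p = 5.02e-24). Slc30a3 was also higher in cortex (2.21 ± 0.16, adjusted p = 5.62e-21) and amygdala (1.85 ± 0.20, adjusted p = 3.45e-12), and lower in septum and BNST (-2.57 ± 0.26, adjusted p = 1.33e-13) and in the diencephalon (-1.89 ± 0.18, adjusted p = 1.04e-14). Only the step from BNST to Arc in its order of regions separated the libraries.

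**Figure D2:**
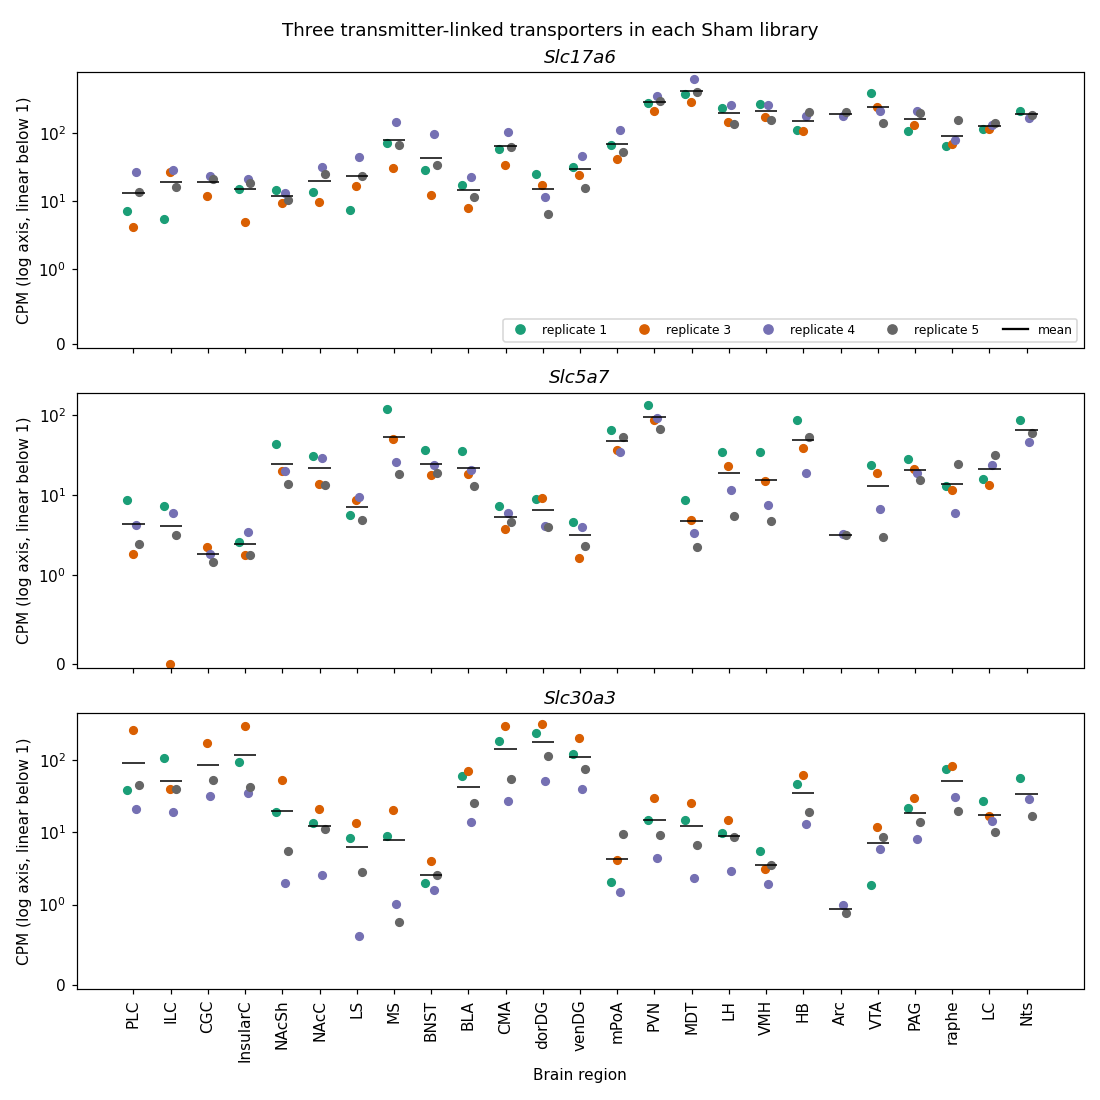
CPM of Slc17a6, Slc5a7 and Slc30a3 in each Sham library (points, colored by replicate number; log axis that is linear below 1) by brain region, with group means as bars. Slc17a6 is high in the thalamic, hypothalamic and brainstem punches, Slc30a3 in dentate gyrus and cortex, and Slc5a7 peaks in PVN with CGC lowest.

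Among metabolite transporters the differences between anatomical groups were smaller. In cortex, 6 members were called against 12.4% of all transcripts. Slc2a3, the neuronal glucose transporter, was higher there (1.08 ± 0.18, adjusted p = 2.73e-07), and Slc16a6, of the monocarboxylate transporter family, was lower (-1.38 ± 0.16, adjusted p = 5.25e-12). Slc25a13, the mitochondrial aspartate/glutamate exchanger, was lower in cortex (-1.19 ± 0.16, adjusted p = 2.33e-09) and in the dentate gyrus (-1.24 ± 0.21, adjusted p = 1.67e-06). In the dentate gyrus 7 members were called against 11.6% of all. Besides Slc30a3, these included Slc7a14 of the cationic amino acid transporter family (1.18 ± 0.12, adjusted p = 1.23e-13) and the neutral amino acid transporter Slc6a15 (1.14 ± 0.13, adjusted p = 2.80e-12) among the higher ones. Slc26a8, an anion transporter known from sperm, was also higher, by 1.07 ± 0.11 (adjusted p = 6.52e-13).

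In the nucleus accumbens, where 3 members were called against 7.83% of all transcripts, Slc35f1 of the nucleotide sugar transporter family was higher (1.06 ± 0.11, adjusted p = 9.97e-13) and Slc25a18, a mitochondrial glutamate carrier, lower (-1.02 ± 0.14, adjusted p = 1.26e-08). In the brainstem, with 3 members called against 10.1%, Slc16a6 was higher (1.246 ± 0.11, adjusted p = 9.41e-16) and Slc2a3 lower (-1.01 ± 0.19, adjusted p = 4.53e-06). The Slc2a3 difference lay at the fold threshold, and it was under it at -0.88 without replicate 1 and -0.99 with median-ratio factors. In septum and BNST 1 member was called against 4.91%, in the amygdala 2 against 4.55% and in the diencephalon 2 against 5.17%, all named above. Across the 7 groups, 23 of 24 called differences had the same sign in each of the 4 replicate numbers. The exception was Slc2a3 in cortex, at -0.02 in replicate 3. The calls were made from these same libraries, so this agreement is a description and carries no weight as support. Without ILC replicates 1 and 3, all 24 were still called, at values from -2.57 to 2.91.

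Neighbouring regions were then compared. HB and MDT, at which 3 members were called against 7.07% of transcripts, differed most in Slc5a7. It had 86.5, 39.4, 19.2 and 53.6 CPM in HB and 8.76, 4.96, 3.35 and 2.22 in MDT, without overlap (log2 fold change 3.46 ± 0.44, adjusted p = 6.15e-09). Slc17a6 was lower in HB than in MDT (-1.46 ± 0.37, adjusted p = 0.00328) and Slc30a3 higher (1.65 ± 0.47, adjusted p = 0.0108). Without the replicate number in the fit, 1 of the 3, Slc5a7, was called, against 2.35% of all transcripts.

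LS against MS gave 2 called members against 1.09% of all. Slc5a7 was lower in LS (5.60, 8.70, 9.52 and 4.90 CPM) than in MS (119, 51.3, 26.4 and 18.2 CPM), by -2.70 ± 0.43 (adjusted p = 2.29e-05), again without overlap, and Slc17a6 was lower by -1.78 ± 0.38 (adjusted p = 0.00282). The fit without the replicate number kept Slc5a7 alone, against 0.147% of all transcripts, and the fit without replicate 1 also called 1 member. For the fit without replicate 1 the share of all transcripts is not given here.

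BLA against CMA gave 4 called members against 2.09% of all. Slc5a7 was higher in BLA (1.89 ± 0.41, adjusted p = 0.00204) and Slc17a6 lower (-2.14 ± 0.38, adjusted p = 9.21e-05), with 17.0, 7.73, 22.2 and 11.6 CPM in BLA and 58.3, 34.4, 106 and 62.1 in CMA. Slc25a18 was also lower in BLA (-1.10 ± 0.25, adjusted p = 0.00313). Slc30a3 was lower by -1.51 ± 0.45, with an adjusted p of 0.0475 (edgeR). The call was lost without the ILC libraries that stand apart (adjusted p = 0.05002), with DESeq2 (0.0626), and without replicate 3 (0.323). Adora2a differed between the same punches, as given above. Without the replicate number in the fit, 1 member, Slc17a6, was called, against 0.376% of all transcripts. Between dorDG and venDG no member was called against 1.39% of all. By edgeR, 5 of 35 members had an unadjusted p under 0.05, against 1775 of 17008 transcripts. DESeq2 gave the same member count against 1774 transcripts, and called no member. Between NAcC and NAcSh no transcript was called (0%) by edgeR or DESeq2. In edgeR, 415 transcripts and 0 of the 35 members had an unadjusted p under 0.05.

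The regional pattern was also read in FT libraries, which the Sham fits did not use. Over the 25 regions 24 members were called in FT libraries, against 62.6% of all transcripts. The shares of all transcripts called in FT libraries were 10.8% in cortex, 7.65% in nucleus accumbens, 5.16% in septum and BNST, 4.47% in amygdala, 10.6% in dentate gyrus, 6.45% in diencephalon and 9.42% in brainstem. Between neighbours they were 1.08% for NAcC and NAcSh, 0.942% for LS and MS, 1.83% for BLA and CMA, 1.27% for dorDG and venDG, and 11.9% for HB and MDT. Of the 33 called combinations of a member and 1 of the 12 contrasts, 25 were called in the same direction in FT libraries, and the other 8 kept their sign. The matching share of all Sham calls is not given here, so these counts are a description. FT libraries are not a separate reading, since deviations of FT and Sham libraries of the same number correlated with a median r of 0.67. Slc30a3 in the dentate gyrus was higher by 3.02 ± 0.15 (adjusted p = 2.05e-29, edgeR) and Slc17a6 in the diencephalon by 2.25 ± 0.15 (adjusted p = 6.77e-22). Slc17a6 in cortex had -1.18 ± 0.23 in FT libraries against -2.39 in Sham, a difference that was not tested. Its FT InsularC libraries differed widely, at 108.6 ± 189.5 CPM (SD, n = 4) against 14.8 ± 7.07 in Sham InsularC. The FT means of PLC, ILC and CGC were 18.3, 21.5 and 18.0 CPM. Across the 25 Sham region means, the members most alike were Slc17a6 and Slc25a18 (Pearson r = 0.84), Slc3a1 and Slc35a5 (0.79) and Slc38a5 and Slc25a38 (0.78). The 25 points share libraries, depth and replicate numbers, so these r are a description.

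For FT against Sham, each region was fitted alone with the replicate number as a block. At the study's cut-offs, an absolute log2 fold change of at least 0.32 and an adjusted p of at most 0.1 within a region (edgeR), 58 of 875 combinations of member and region were called (6.63%), against 1.93% of all. Of these, 24 were higher in FT (1.01% of all) and 34 lower (0.913% of all). They lay in 4 regions, and in the other 21 between 0 and 0.465% of all transcripts were called. There were 28 in Arc (24.6% of all transcripts called there), 13 in mPoA (9.59%), 12 in raphe (6.6%) and 5 in Nts (4.16%). Arc and mPoA had 2 pairs each, those of replicates 4 and 5, and the Nts fit held the Sham library of 4586 counts. Values in Arc and mPoA therefore rest on other pairs than those of regions with all replicate numbers. Without Arc, mPoA and Nts, the 12 calls in raphe were left. No member was called without the replicate number in the fit, and over all transcripts 1 of 334878 combinations was. In that fit 83 of 875 member combinations had an unadjusted p under 0.05. The matching share of all transcripts is not given here, so this count is a description. DESeq2 with the block called 128. Leaving out replicate 1 or 3 gave 71 and 67 calls, and leaving out replicate 4 or 5 gave 2 each, with Arc and mPoA then not fitted. Since the members were listed for this contrast, their share of calls carries no weight here.

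**Figure D3:**
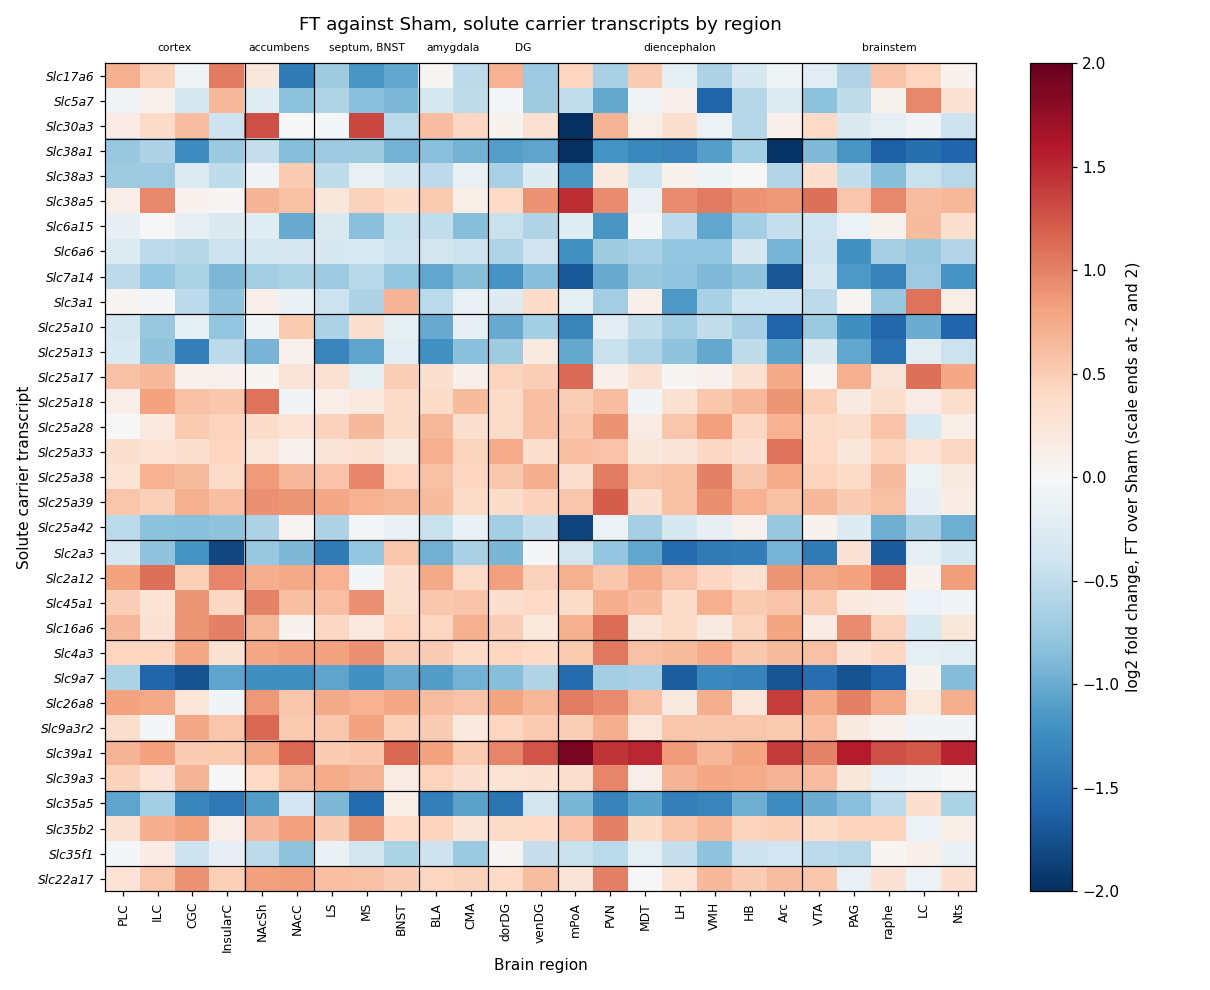
Heat map of fitted log2 fold changes, FT over Sham, for 33 of the 35 members (rows, grouped by role) in 25 regions (columns). Color is cut at -2 and 2. Rows for Slc39a1, Slc2a12 and Slc26a8 are mostly red and rows for Slc9a7, Slc35a5, Slc38a1 and Slc7a14 mostly blue, while the rows of Slc17a6, Slc5a7 and Slc30a3 change color between regions.

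Members were alike in direction across regions. Regions are not independent readings. By the study's animal numbers those of a replicate number in a group share rats, and its methods name replicate numbers as batches. Deviations from group means correlated with a median r of 0.73 between Sham libraries of the same number in different regions. Between FT and Sham libraries of the same number in a region, which come from different rats, it was 0.67. The parts of rats and batches in this were not tested. Counts of regions are therefore a description. The fitted log2 fold change was above 0 in at least 22 of 25 regions for 18 members and below 0 in at least 22 for 11, together 82.9% of the 35, against 28.4% of 11365 transcripts tested in all 25 regions and 67.0% of the 1754 named ones among them, chosen by the study in the same contrast. The median over regions was above 0 for 19 members and below 0 for 16, and for all transcripts above 0 for 6061 and below 0 for 5304. Its size had a median of 0.52 over members, 0.48 over the named transcripts and 0.19 over all transcripts. LC held values off this pattern. Slc9a7 had 0.06 and Slc35a5 0.33 there, against medians of -1.21 and -1.06, and Slc25a39 had -0.17 against 0.59, while Slc38a1 was at -1.501 as in other regions below 0.

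Both zinc importers had medians above 0, and so did 3 of the 4 sugar and monocarboxylate transporters, with Slc2a3 below 0. Slc39a1 (ENSRNOT00000021904), a zinc importer of the plasma membrane, had the highest median, 0.97, and was above 0 in 25 of 25 regions (0.51 in LS to 1.90 in mPoA). The mPoA value rests on the pairs of replicates 4 and 5 alone. Among combinations with 3 or more pairs, all in the same direction, the highest value was that of Slc39a1 in PAG. Sham PAG libraries had 23.2, 13.9, 83.7 and 82.1 CPM and FT libraries 41.4, 17.9, 280.3 and 652.5, in replicates 1, 3, 4 and 5 (log2 fold change 1.57 ± 0.39). The groups overlapped, since replicates 1 and 3 were low in both. Slc2a12, a glucose transporter, had a median of 0.73 and was above 0 in 24 regions. Slc39a3, also a zinc importer, had a median of 0.40 and was above 0 in 22.

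Slc26a8 had a median of 0.73 (24 regions above 0), Slc38a5, a glutamine transporter, 0.61 (24 regions) and Slc25a39, the mitochondrial glutathione carrier, 0.59 (24 regions). Of the 10 Slc25 carriers, 7 had medians above 0. They included Slc25a38 (0.57), which brings glycine into mitochondria for heme synthesis, and Slc25a28 (0.41), a mitochondrial iron importer. The 3 below 0 were Slc25a42 (-0.53), the carrier of coenzyme A, the dicarboxylate carrier Slc25a10 (-0.68) and Slc25a13 (-0.81). The anion exchanger Slc4a3 (0.53), the scaffold Slc9a3r2 (0.52), the sugar transporter Slc45a1 (0.52), Slc22a17 (0.50), Slc35b2 (0.45), which carries the sulfate donor into the Golgi, and Slc16a6 (0.44) also lay above 0. The other 4 Slc25 carriers had medians from 0.30 (Slc25a17) to 0.39 (Slc25a18).

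Slc9a7 (ENSRNOT00000005623), a sodium/proton exchanger of the Golgi, had the lowest median, -1.21, and was above 0 in LC alone of 25 regions. Among combinations with 3 or more pairs, all in the same direction, the lowest value was that of Slc9a7 in CGC. Sham CGC libraries of replicates 3, 4 and 5 had 8.78, 4.70 and 5.39 CPM and FT libraries 3.78, 1.95 and 0.75 CPM, without overlap (log2 fold change -1.75 ± 0.41). These were low counts, at 35, 71 and 92 reads in Sham and 13, 27 and 10 in FT. Slc35a5, an orphan of the nucleotide sugar transporter family, had a median of -1.06, and Slc2a3 one of -0.89.

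Of the 7 amino acid transporters, 6 had medians below 0. Slc38a1 (ENSRNOT00000008138) had a median of -1.05 and Slc7a14 of -0.81, and both were below 0 in all 25 regions. Slc6a6, which takes up taurine, was below 0 in all 25 too, with a median of -0.53. Slc6a15 (-0.40), Slc38a3 (-0.39) and Slc3a1 (-0.25), the heavy chain of a cystine transporter, followed. Slc35f1 had a median of -0.42.

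Raphe holds the serotonin neurons whose reuptake transporter fluoxetine blocks. There the Sham libraries of Slc38a1 had 43.7, 88.9, 52.7 and 69.8 CPM and the FT libraries 35.7, 47.3, 7.31 and 12.4, in replicates 1, 3, 4 and 5. Every pair was lower in FT, by more in replicates 4 and 5 than in 1 and 3, and the groups overlapped (log2 fold change -1.63 ± 0.40). Slc9a7 had 2.40, 4.07, 5.28 and 6.36 CPM in Sham and 0.946, 1.80, 1.44 and 1.85 in FT, without overlap (-1.62 ± 0.34).

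Slc39a1 in raphe had 31.4, 12.7, 62.5 and 72.1 CPM in Sham and 32.8, 9.91, 491 and 290.3 in FT. It was higher in replicates 1, 4 and 5, and the pair of replicate 3 was lower in FT (1.29 ± 0.49). Slc25a39 had 81.9, 101, 41.2 and 41.2 CPM in Sham and 145, 118.5, 66.4 and 66.7 in FT, higher in each pair (0.59 ± 0.16). Slc2a3 had 3.75, 2.29, 6.96 and 4.75 CPM in Sham and 1.07, 0.90, 1.20 and 2.68 in FT, lower in each pair (-1.67 ± 0.39). The FT values of Slc2a3 rested on 17, 2, 10 and 29 reads.

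Slc7a14 in raphe had 49.3, 51.6, 32.6 and 20.1 CPM in Sham and 17.5, 44.2, 9.11 and 6.38 in FT, lower in each pair (-1.34 ± 0.27). Slc38a5 had 5.74, 5.08, 5.20 and 6.12 CPM in Sham and 6.88, 5.41, 22.7 and 13.7 in FT, higher in each pair (0.96 ± 0.34), with pairs 1 and 3 close to 0. Slc2a12 had 4.81, 5.08, 5.95 and 7.97 CPM in Sham and 17.3, 3.61, 15.8 and 14.5 in FT, where replicate 3 was the exception. Slc26a8 was likewise higher in 3 of 4 pairs and Slc35a5 lower in 3 of 4, with overlapping groups. The members called in raphe were, below 0, Slc9a7, Slc38a1, Slc2a3, Slc25a10, Slc25a13, Slc7a14, Slc25a42, Slc38a3 and Slc3a1, and above 0, Slc25a38, Slc25a39 and Slc25a28. In Nts the calls were Slc39a1 (1.53), Slc38a1 (-1.58), Slc25a10 (-1.59), Slc7a14 (-1.18) and Slc25a42 (-0.98). Without the Nts pair of the shallow Sham library the total of calls was 53.

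**Figure D4:**
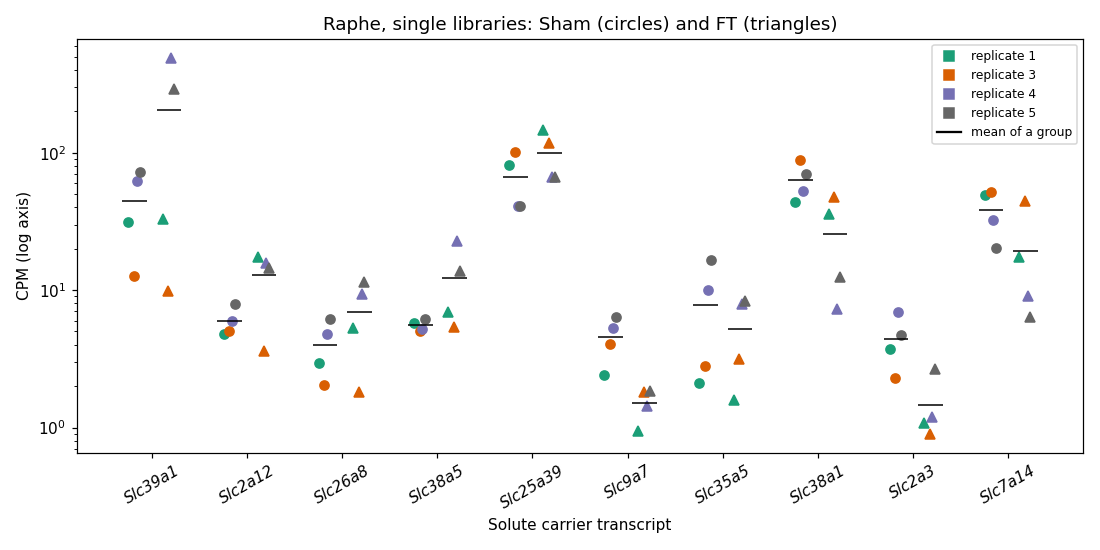
CPM (log axis) of the 5 members with the highest and the 5 with the lowest median fold change in each raphe library, Sham as circles and FT as triangles, colored by replicate number, with group means as bars. Slc39a1 splits in FT into 2 libraries near 10 to 33 CPM and 2 above 290 CPM, while the Slc9a7 groups are apart.

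The pairs did not carry the differences evenly. Within each pair a log2 ratio of the FT to the Sham library was taken, and its median over regions follows, in 22 regions for pairs 1 and 3 and 25 for pairs 4 and 5. For Slc39a1 these medians were 0.02 and 0.11 in pairs 1 and 3, and above 1 in pair 4 and 2.02 in pair 5. Slc38a1 had 0.23 and 0.11 against -2.04 and -2.12, and Slc7a14 -0.26 and 0.04 against -1.46 and -1.70. In all, 6 members had medians below 0.2 in size in pairs 1 and 3 and of at least 0.5 with a single sign in pairs 4 and 5, namely Slc39a1, Slc2a12, Slc38a5, Slc25a17, Slc25a10 and Slc38a3. Slc25a42 had opposite signs, with 0.35 and 0.43 in pairs 1 and 3 and -0.84 and -1.07 in pairs 4 and 5.

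Other members shared a sign and a minimum size in the 4 pairs. A median of at least 0.3 in size with a single sign in every pair was found for 11 members. Slc25a38 had 0.56, 0.53, 0.56 and 0.58 in pairs 1, 3, 4 and 5, Slc25a39 had 0.62, 0.60, 0.68 and 0.49, and Slc39a3 had 0.48, 0.51, 0.43 and 0.49. Slc25a18, Slc25a28, Slc26a8, Slc9a3r2 and Slc35b2 were the others above 0. Below 0 were Slc9a7 (-0.45, -0.56, -1.35 and -1.76), Slc35a5 (-0.89, -0.62, -1.18 and -1.002) and Slc2a3 (-0.86, -0.92, -0.34 and -1.28). The size of the pair median had a median over members of 0.38, 0.37, 0.60 and 0.58 in pairs 1, 3, 4 and 5, and over all transcripts of 0.23, 0.22, 0.29 and 0.32. Since the members were listed for this contrast, their larger sizes carry no weight. The share of reads outside annotated features also moved with treatment, and differently by pair: FT exceeded Sham in 3 of 23 regions in pair 1, 12 of 23 in pair 3, 21 of 25 in pair 4 and 7 of 25 in pair 5. The share of ambiguous reads was higher in FT in 11 of 23 regions in pair 1, 9 of 23 in pair 3, 3 of 25 in pair 4 and 2 of 25 in pair 5. For the share of counts in the top 50 transcripts these were 7 of 23, 11 of 23, 3 of 25 and 10 of 25. The part of these shares in the ratios was not tested.

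**Figure D5:**
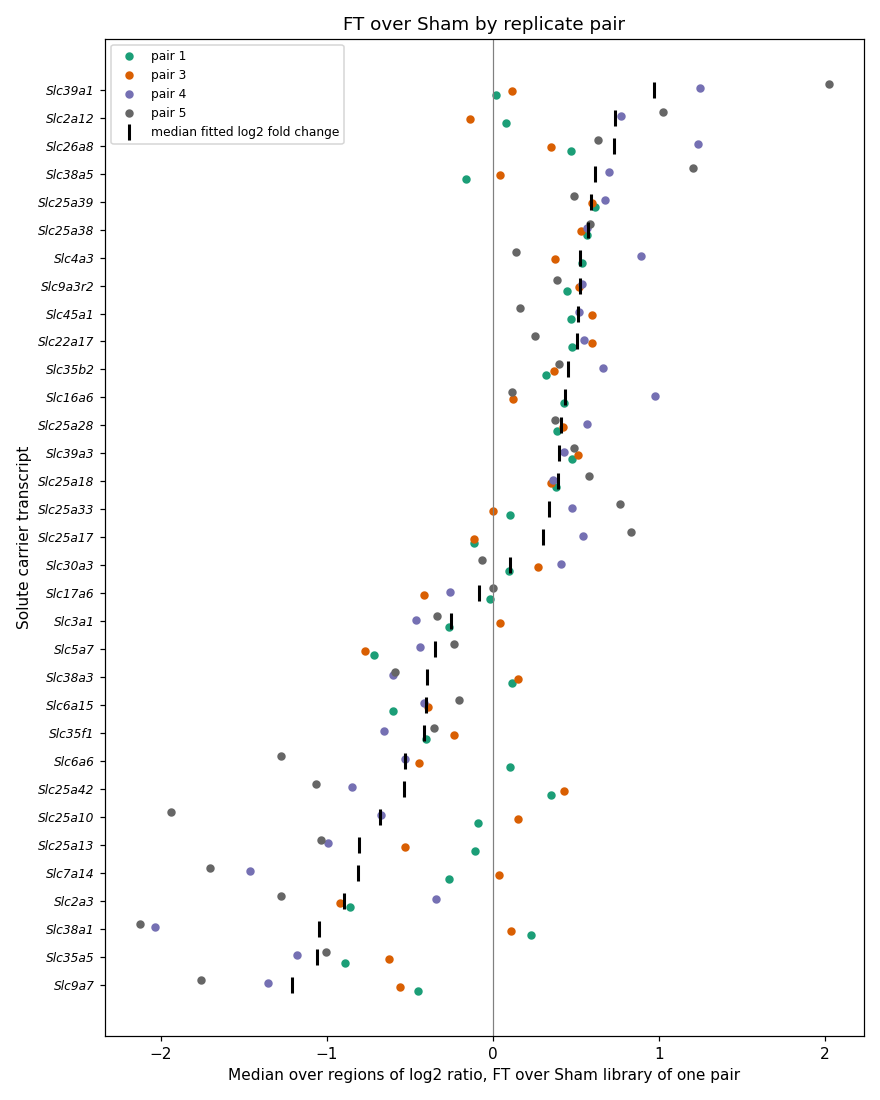
Median over regions of the log2 ratio FT over Sham within pairs 1, 3, 4 and 5 (colored points) for 33 of the 35 members, ordered by the median fitted log2 fold change over regions (black tick). For Slc39a1, Slc38a1 and Slc7a14 pairs 4 and 5 lie far from 0 and pairs 1 and 3 near it, and for Slc25a38 and Slc25a39 the 4 points lie together.

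The vesicular and choline transporters had no common direction. Slc17a6 was above 0 in 11 of 25 regions (median -0.08, from -1.40 in NAcC to 1.04 in InsularC), Slc30a3 in 14 (median 0.10, from -2.04 in mPoA to 1.33 in MS) and Slc5a7 in 6 (median -0.35, from -1.61 in VMH to 0.96 in LC). The InsularC value of Slc17a6 rests on FT libraries that differed widely (108.6 ± 189.5 CPM, SD). Slc5a7 pair medians were all below 0, at -0.72, -0.77, -0.44 and -0.23. Slc30a3 was higher in FT in each of the 4 pairs in MS (1.33 ± 0.29) and NAcSh (1.29 ± 0.31) and lower in each pair in HB (-0.58 ± 0.19). None of these passed the cut-offs with edgeR, which called Slc30a3 in mPoA alone, from 2 pairs, and Slc17a6 and Slc5a7 in no region. DESeq2 with the block called Slc30a3 higher in 2 regions, and Slc17a6 and Slc5a7 lower in 3 regions each.

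The solute carriers set aside by name or spelling were read the same way. Slc7a10, an exchanger of small neutral amino acids, was above 0 in 25 of 25 regions (median 1.00), and Slc6a7, a proline transporter, below 0 in 25 (-0.80). Slc6a11, which takes up GABA, was below 0 in 24 (-1.01), and SLC25A22, a mitochondrial glutamate carrier, in 22 of 22 tested (-0.99). Slc6a3 was tested in 3 regions and was below 0 in each. Together 11 of their 100 combinations were called, against the 1.93% of all given above. Their names come from the study's list of calls in this same contrast, so this share carries no weight. Of the 5 named ion pumps, ABC transporters and related subunits, 9 combinations were called. Abcd3, a peroxisomal fatty acid transporter, had a median of 1.05 and Atp8b3, a lipid flippase, 0.81, both above 0 in all 25 regions. Atp13a2 had 0.47, Abca2 -0.09 and Atp6ap2 -0.49.

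Cell type markers were covered in part, since the study's list names 7 of 17 oligodendrocyte, 5 of 14 astrocyte, 3 of 11 microglia, 1 of 10 endothelial, 2 of 8 choroid plexus, 2 of 12 neuron, and 1 of 7 meninges and blood markers. Within 3 of these lists the named genes lay on both sides of 0, and 2 astrocyte genes, Slc7a10 and Slc6a11, are carriers given above. Astrocyte Kcnj10 had a median of -1.76 and Apoe one of 0.40, oligodendrocyte Sox10 had 0.73 and Ermn -0.38, and microglial C1qa had 0.37 and Cx3cr1 -0.62. Both neuronal markers, Gad2 (-0.45) and Tubb3 (-0.29), had medians below 0, and together had pair medians of 0.05, -0.04, -0.50 and -1.04 in pairs 1, 3, 4 and 5. Summed oligodendrocyte markers ranged from 101 to 1621 CPM over Sham libraries and 108 to 1600 over FT libraries, neuronal ones from 102 to 2101 and 63.7 to 1184, and astrocyte ones from 399.8 to 26070 and 408 to 37050. Microglial ones ranged from 53.9 to 175.5 and 78.2 to 344. Choroid plexus Ttr and Sostdc1 together reached 69870 CPM in Sham and 99150 in FT, with Sham means of Ttr of 27360 in LC, 11920 in PVN and 8681 in HB. The endothelial marker Calcrl (median -1.16) was at 0 in at least 1 library of each group. The part of these cell types in the members' values was not tested.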

How the data were processed

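RNA from pooled brain punches was sequenced as stranded paired reads. Per the labels the submitters' processing used STAR, HTSeq and FastQC on the rn5 build, and the authors deposited raw counts per Ensembl transcript, without normalization (29188 transcripts). Transcripts that share exons can lose ambiguous reads (median 5.52% of reads), and reads outside features were a median of 40.3%; both classes were left out of library sizes. Totals ranged from 4586 to 50893913 counts, and few reads limit low members. Names came from the study's list of called transcripts alone. Members and gene lists were chosen with earlier results of these data known, including results in the same contrast. A few transcripts were counted with the others but their own values are not reported here.

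Regional contrasts used all Sham libraries in one edgeR 4.0.16 quasi-likelihood fit in R 4.3.3 (TMM factors, filterByExpr at a minimum count of 10 and total of 15, replicate number as block), with calls at a Benjamini-Hochberg adjusted p of 0.05 and an absolute log2 fold change of 1. FT and Sham were fitted per region in the same way at the study's cut-offs, an adjusted p of 0.1 and an absolute log2 fold change of 0.32. The standard error is the absolute log2 fold change divided by the square root of F. CPM use TMM factors over all 196 libraries, and log2 CPM a prior count of 2. Library CGC replicate 1 was left out of both, and Sham Nts replicate 3 out of the Sham fits, CPM means and pair ratios. The study's methods name replicate numbers as batches. Deviations of FT and Sham libraries of the same number correlated across 5837 transcripts with a median r of 0.67 over regions (-0.02 to 0.79), and those of Sham libraries of the same number in different regions with 0.73. Named in the text are Slc17a6, Slc5a7 and Slc30a3, up to 3 members called higher and lower per anatomical contrast, the largest in each neighbouring pair, and the 5 highest and 5 lowest medians of FT against Sham with the largest rise and fall seen in every pair; the other neighbouring-pair calls, LC and further members were named after their values were seen. Alternatives were median-ratio factors, no filter, no block, each replicate left out, libraries kept in or left out, FT in place of Sham libraries, other cut-offs and DESeq2 1.42.0; leaving out ILC replicates 1 and 3, or mPoA, Arc and Nts, was chosen after the data were seen. The fitting code was tested on simulated data. Figures used Python 3.11.15 and matplotlib 3.10.9.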

Additional observations from a re-analysis of the deposited data

Results flagged for a closer look

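Of 73 sets of 4 libraries, each read for 1 quantity, 3 had a library far from the other 3, and chance gives about 1 set in 20. The quantities included the summed CPM of the members and the CPM of single members. Not every member and region was screened. The summed CPM of the 35 members was 2408 in Sham PLC replicate 3, against 1279 to 1423 in the others. It was 1831 in Sham PVN replicate 3, against 1556 to 1593 in the others. Slc2a3 had 2.68 CPM in FT raphe replicate 5, against at least 0.901 and at most 1.198 in the others.

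Opposite directions in different regions were seen for 2 members, and these differences between regions were not tested. Among combinations with 3 or more pairs, every pair went the same way in 41.5% for members, which were listed for this contrast, and 23.5% for all transcripts. The counts of regions below are to be read beside these shares. Slc17a6 was higher in FT in every pair in 2 regions (dorDG and LC) and lower in every pair in 6 (CGC, NAcC, MS, BNST, HB and PAG), with changes as small as 0.003 in a pair in LC. Slc30a3 was higher in every pair in 4 regions (CGC, NAcSh, MS and BLA) and lower in every pair in 3 (BNST, HB and raphe).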

How the results depend on the processing

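No count moved by more than 1.5 times with median-ratio factors, with the CGC, Nts or ILC libraries kept in or left out, or, in the regional contrasts, without a filter or with DESeq2. For FT against Sham, 58 called combinations became 170 without a filter, 128 with DESeq2, 28 at an adjusted p of 0.05, and 12 without mPoA, Arc and Nts; leaving out replicates 1, 3, 4 or 5 gave 2 to 71, and without replicate 4 or 5 Arc and mPoA could not be fitted, so 23 regions remained. Shares of all transcripts called are not given here for these FT alternatives, so their counts are a description. With no replicate block the FT count was 0, and the regional test called 12 members against 28.7% of all transcripts. LS against MS, BLA against CMA and HB against MDT then had 1 member each, against 0.147%, 0.376% and 2.35% of all. The pairing changed no other count by more than 1.5 times. Leaving out 1 replicate gave 1 to 2 called members in septum and BNST, 1 to 2 in LS against MS and 2 to 3 in BLA against CMA. Shares of all transcripts called in these fits are not given here either, so these counts are a description. At the study's cut-offs the Sham counts, each with the share of all transcripts called there, were 17 in cortex (41.5%), 17 in nucleus accumbens (28.5%), 10 in septum and BNST (20.9%), 13 in amygdala (21.3%), 14 in dentate gyrus (35.9%), 10 in diencephalon (24.9%), 23 in brainstem (45.1%), 2 in dorDG against venDG (2.56%) and 5 in HB against MDT (14.1%). In FT libraries, at an adjusted p of 0.05 and a log2 fold change of 1, the counts were 2 in septum and BNST, 1 in NAcC against NAcSh, 1 in LS against MS and 6 in HB against MDT. No member's regional difference or median fold change reversed under these alternatives. Medians moved by over 1.5 times without replicate 5 for 14 members, without replicate 4 for 8, without replicate 1 for 1 and without replicate 3 for 0, together 17 of 35; without replicate 5, Slc25a10 went from -0.68 to -0.03, Slc39a1 from 0.97 to 0.53, Slc38a1 from -1.05 to -0.61 and Slc7a14 from -0.81 to -0.44. Slc30a3 in BLA against CMA (adjusted p = 0.0475, edgeR) and Slc2a3 in the brainstem were the calls lost most often. The causes were not tested.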
